A study of Mus musculus with 4 samples.

Results

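The genes described here are 10 nuclear receptors, ligand-regulated or constitutively active transcription factors: the NR4A orphan receptors Nr4a1, Nr4a2 and Nr4a3, the fatty acid sensors Pparg and Ppard, the retinoid receptors Rxra, Rara and Rarg, the vitamin D receptor Vdr and the glucocorticoid receptor Nr3c1. They were taken by gene symbol, and each of the 10 was found once among the 37681 gene IDs of the count tables. Their mRNA was sequenced from bone marrow cells of C57BL/6 mice, wild type in genotype, after culture in DMEM that held fetal bovine serum and L929 supernatant. L929 cells secrete M-CSF, on which bone marrow cells grow into macrophages. The groups were cells with shRNA against lncRNA-COX2 given 100 nM Pam3Cys4 for 5 h, cells with that shRNA left unstimulated, cells without shRNA given the same Pam3Cys4, and cells without shRNA left unstimulated. Pam3Cys4 is a synthetic lipopeptide sensed by TLR2 with TLR1. Each of the 4 groups had 1 library, so a difference between groups could not be set against spread between cultures. The term EV, unexplained in the labels, stands in the titles of both libraries without shRNA. How many mice gave the cells, and their age, is not stated in the labels.

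Nuclear receptors bind short DNA elements and recruit coactivators or corepressors. PPARs, retinoic acid receptors, the vitamin D receptor and the liver X receptors act as heterodimers with an RXR, while the glucocorticoid receptor is held by HSP90 chaperones in the cytoplasm until cortisol or corticosterone binds it. In macrophages, PPAR gamma is known for lipid uptake and storage genes, the glucocorticoid receptor for anti-inflammatory genes, and the NR4A genes as immediate early genes that signals induce quickly and briefly.

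The libraries held 47385277 to 65826838 gene reads, and 9 of 9 macrophage markers were read in each library, with summed levels of 5984 to 8491 CPM, counts scaled to library depth. Summed markers of neutrophils reached at most 1.07 CPM, those of dendritic cells 2.30 CPM, those of fibroblasts and adipocytes 0.0396 CPM, and no T cell marker was read. All 7 tested genes of a TLR2 response list rose with Pam3Cys4 in edgeR's quasi-likelihood test of an additive model. The libraries with shRNA differed from those without in more than the genes of interest. Of the 9 macrophage markers, 3 rose and 1 fell with the shRNA in that test, against 12.3 and 8.66% of all genes. Mertk, 1 of those that rose, had 8.02 and 38.8 CPM with shRNA (Pam3Cys4 and unstimulated), against 1.09 and 4.91 without. The 15 interferon-stimulated genes of a marker list summed to 5592 and 1755 CPM with shRNA (Pam3Cys4 and unstimulated), against 368 and 96.2 CPM without. Of 4 Y-linked genes looked up, Ddx3y had 1116 and 921 counts with shRNA, against 4 and 3 without. Kdm5d had 665 and 730 counts with shRNA, against 1 and 0 without, and Uty had 334 and 320, against 0 and 1. Eif2s3y had 0 and 0 with shRNA, against 6 and 3 without, and Xist, which is transcribed from the inactive X chromosome, had at most 2 counts in any library. An effect of the shRNA and a difference between the cells used cannot be told apart. The part of either in the receptor results was not tested. Nor can fewer cells with a transcript and less of it per cell be told apart in bulk RNA.

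The promoter windows of the NR4A genes and of Ppard are shown first. The NR4A genes are textbook targets of the cAMP-responsive factor CREB, and Ppard is the member that rose with Pam3Cys4 in the additive test. Each window runs from 250 bases before to 50 bases after a RefSeq transcription start, on the gene's strand, in GRCm38.p6, a later build than the one used for the counts. Nr4a1 lies on the plus strand at chr15:101266596-101266895, Nr4a2 on the minus strand at chr2:57123954-57124253, Nr4a3 on the plus strand at chr4:48045055-48045354 and Ppard on the plus strand at chr17:28232504-28232803. Capitals mark the CREB half-site TGACG or its reverse complement.
Nr4a1: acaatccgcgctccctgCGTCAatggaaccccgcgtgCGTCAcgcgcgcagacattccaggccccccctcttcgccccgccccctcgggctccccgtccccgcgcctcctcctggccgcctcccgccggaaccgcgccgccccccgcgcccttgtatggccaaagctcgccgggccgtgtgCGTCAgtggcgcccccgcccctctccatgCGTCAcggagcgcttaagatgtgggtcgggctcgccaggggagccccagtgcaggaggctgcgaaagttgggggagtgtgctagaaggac
Nr4a2: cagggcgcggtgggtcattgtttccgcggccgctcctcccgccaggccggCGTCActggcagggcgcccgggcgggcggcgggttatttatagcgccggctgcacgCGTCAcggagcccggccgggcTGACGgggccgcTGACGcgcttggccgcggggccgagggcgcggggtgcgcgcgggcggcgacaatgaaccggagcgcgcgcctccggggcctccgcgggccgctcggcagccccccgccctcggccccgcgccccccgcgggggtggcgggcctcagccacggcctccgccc
Nr4a3: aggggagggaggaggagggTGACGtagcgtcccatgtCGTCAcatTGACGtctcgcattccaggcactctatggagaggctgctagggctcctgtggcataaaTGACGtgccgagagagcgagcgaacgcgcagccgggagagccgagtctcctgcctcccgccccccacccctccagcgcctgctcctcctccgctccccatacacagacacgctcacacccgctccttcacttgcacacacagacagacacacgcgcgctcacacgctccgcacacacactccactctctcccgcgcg
Ppard: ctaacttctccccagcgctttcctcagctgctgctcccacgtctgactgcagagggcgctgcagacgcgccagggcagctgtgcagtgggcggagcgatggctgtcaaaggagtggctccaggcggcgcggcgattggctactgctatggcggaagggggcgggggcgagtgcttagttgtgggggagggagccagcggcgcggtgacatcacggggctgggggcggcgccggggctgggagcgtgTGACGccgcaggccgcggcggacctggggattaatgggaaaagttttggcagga
Each of the 3 NR4A windows held 4 matches to TGACG over both strands, and Ppard held 1. Of 32851 promoter windows of this length, 20.8% held at least 1 match and 0.231% held 4 or more. The full site TGACGTCA was in none of these windows and in 1.79% of all. The windows of Nr4a1, Nr4a2, Nr4a3 and Ppard were 72.3, 81.7, 64.7 and 68.3% G and C, above the median of 52.7% over all windows. A match of letters is a description of the window and not evidence that a factor bound there.

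Pparg has 3 listed starts, shown because its level differed most between the libraries. Starts 1, 2 and 3 lie on the plus strand at chr6:115360894-115361193, chr6:115362099-115362398 and chr6:115421816-115422115, and capitals mark the nuclear receptor half-site AGGTCA.
Pparg start 1: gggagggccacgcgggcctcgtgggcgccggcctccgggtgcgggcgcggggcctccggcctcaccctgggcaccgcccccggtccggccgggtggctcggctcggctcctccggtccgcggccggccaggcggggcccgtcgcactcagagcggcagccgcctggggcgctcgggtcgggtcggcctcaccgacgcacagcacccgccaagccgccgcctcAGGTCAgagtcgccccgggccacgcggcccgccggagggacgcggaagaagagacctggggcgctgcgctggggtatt
Pparg start 2: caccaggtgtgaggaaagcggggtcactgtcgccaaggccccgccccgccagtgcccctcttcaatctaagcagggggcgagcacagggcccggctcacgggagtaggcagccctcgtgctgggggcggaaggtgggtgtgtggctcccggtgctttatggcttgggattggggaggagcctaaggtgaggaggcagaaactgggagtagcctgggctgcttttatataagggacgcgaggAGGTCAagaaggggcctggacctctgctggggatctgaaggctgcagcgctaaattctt
Pparg start 3: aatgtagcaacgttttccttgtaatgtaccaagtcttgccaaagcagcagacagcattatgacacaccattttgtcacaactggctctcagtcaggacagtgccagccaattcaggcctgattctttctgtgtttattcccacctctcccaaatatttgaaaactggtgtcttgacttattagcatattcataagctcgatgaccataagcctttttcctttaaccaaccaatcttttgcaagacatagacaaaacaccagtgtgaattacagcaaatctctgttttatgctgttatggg
The windows of starts 1 and 2 each held 1 AGGTCA, and that of start 3 held none, where 16.3% of all windows hold at least 1 on either strand. None of the 3 held TGACG. The second of the Rxra windows held 2 AGGTCA half-sites, 1 of them within AAAGGTCA, the NR4A monomer site, which 1.51% of all windows hold. The first Rarg window held the core letters of the interferon response element, found in 3.44% of all windows. Letters of the NF-kB consensus were in the Nr4a1 window and in Rara windows 1 and 2, but not in those of Ppard or Pparg, and 4.51% of all windows hold them. The Rara match was the same GGGATTCTCC in both windows, at -227 and -249 from their starts, so it may be 1 site in overlapping windows. The counts per gene do not say which start a transcript used. A promoter window was at hand for 9 of the 10 genes, 16 windows in all, and Nr3c1 is named only.

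Ppard, the receptor for long-chain fatty acids found in most tissues, rose with Pam3Cys4, while Pparg rose and Ppard fell with the shRNA. Rxra, the RXR partner, was read at a low level in both libraries with shRNA. Between libraries that differed in 1 factor, Rara differed by at most 1.24-fold and Nr3c1 by at most 1.56-fold. A ratio between 2 libraries is called here when it reaches 2 or 0.5, its exact 95% interval excludes 1 and the gene has at least 5 CPM in the higher library. These intervals cover counting error only.

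With 10 receptors and a filter on level, the counts are small. For Pam3Cys4 over unstimulated cells with shRNA, 2 of 6 members tested were called higher and 0 lower, against 6.3 and 3.53% of all 9601 genes tested. Without shRNA, 1 of 6 was higher and 0 lower, against 7.07 and 6.51% of 9555 genes. For shRNA over no shRNA after Pam3Cys4, 2 of 6 were higher and 1 lower, against 9 and 5.58% of 9702 genes. In unstimulated cells 1 of 7 was higher and 1 lower, against 7 and 4.82% of 9651 genes. The members' median log2 ratios were 0.40 and 0.08 for Pam3Cys4 (with and without shRNA) and 0.42 and -0.30 for the shRNA (Pam3Cys4 and unstimulated), where medians over all genes tested were 0.02, -0.00, 0.05 and 0.02. In the additive test, 1 of 6 members rose and 0 fell with Pam3Cys4, against 11.9 and 10.9% of 9559 genes. With the shRNA 2 of 6 rose and 1 fell, against 12.3 and 8.66%. That test uses the libraries of the other factor as repeats and has 1 residual degree of freedom, and spread between cultures is outside its p-values. Nr4a2, Nr4a3 and Vdr were under 5 CPM in all 4 libraries, Rxra reached 5 CPM in 1 library, and Pparg reached it with shRNA alone.

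**Figure D1:**
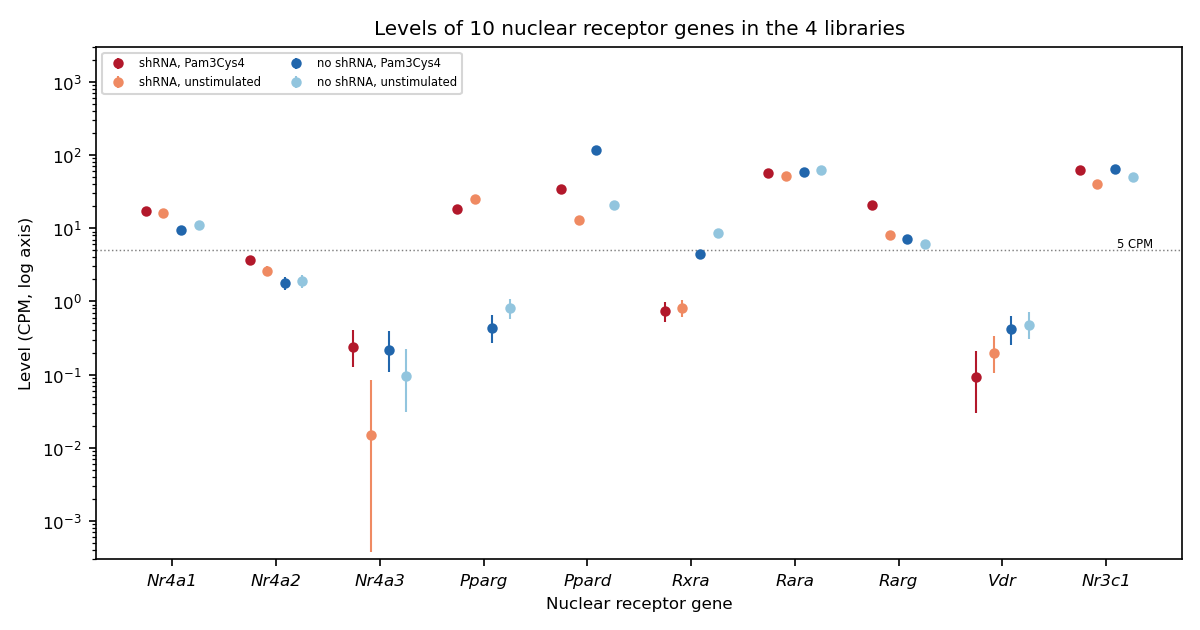
Level of each receptor in each library, as CPM after TMM scaling on a log axis, with exact 95% counting intervals as bars; libraries run shRNA Pam3Cys4, shRNA unstimulated, no shRNA Pam3Cys4, no shRNA unstimulated. Pparg sits at 18.3 and 25.2 CPM with shRNA and under 1 CPM without, Rxra is under 1 CPM with shRNA and at 4.39 and 8.65 CPM without, and Ppard stands at 116 CPM in the Pam3Cys4 library without shRNA.

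Pparg, which encodes PPAR gamma, the receptor that drives fat cell formation and lipid uptake in macrophages, was read in 1007 and 1676 counts with shRNA (Pam3Cys4 and unstimulated), against 22 and 42 counts without. These are 18.3 and 25.2 CPM with shRNA, against 0.435 and 0.806 CPM without, so the libraries with shRNA lay far above those without. The ratio of shRNA over no shRNA was 42.1 after Pam3Cys4 (95% counting interval 27.7 to 67.5) and 31.2 in unstimulated cells (23.0 to 43.5). Pparg rose with the shRNA in the additive test by 5.15 on the log2 scale (SE 0.22, edgeR quasi-likelihood test, Benjamini-Hochberg adjusted p = 0.000582). Within each shRNA state the Pam3Cys4 library had the lower Pparg level. The ratio of Pam3Cys4 over unstimulated was 0.729 with shRNA (0.674 to 0.789) and 0.540 without (0.307 to 0.926, on 22 against 42 counts), and the additive effect of -0.58 on the log2 scale did not pass (edgeR adjusted p = 0.095).

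Ppard, which encodes PPAR delta, had 1902 counts (34.6 CPM) after Pam3Cys4 and 868 (13.0 CPM) unstimulated in cells with shRNA. Without shRNA it had 5846 counts (116 CPM) after Pam3Cys4 and 1096 (21.0 CPM) unstimulated. Both Pam3Cys4 libraries were above both unstimulated ones, and the Pam3Cys4 library without shRNA was the highest. The Pam3Cys4 ratio was 2.66 with shRNA (2.45 to 2.89) and 5.50 without (5.16 to 5.88), and Ppard rose by 1.94 on the log2 scale in the additive test (SE 0.28, edgeR adjusted p = 0.0159). Ppard was 3.34-fold lower with shRNA after Pam3Cys4 (3.17 to 3.52) and 1.61-fold lower in unstimulated cells (1.48 to 1.77), the second short of the 2-fold call. With the shRNA it fell by 1.22 on the log2 scale in the additive test (SE 0.28, edgeR adjusted p = 0.0413).

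The Pam3Cys4 ratio of Ppard was 2.07-fold smaller with shRNA than without, a log2 ratio of ratios of -1.05 (95% counting interval -1.20 to -0.90). Of 7 members tested for such a difference, 1 had a smaller and 1 a larger stimulation fold with shRNA, against 1.64 and 1.94% of 9857 genes. The larger one was Rarg. No replicate test of either was possible.

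**Figure D2:**
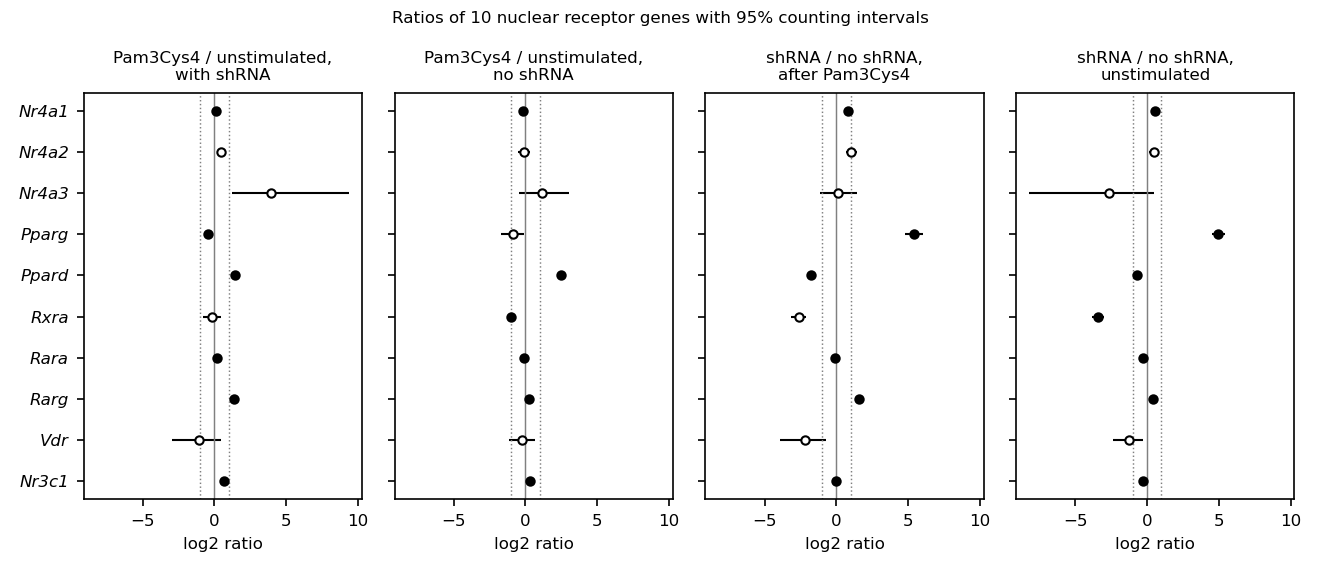
Ratio of each receptor between libraries on a log2 axis, with exact 95% counting intervals, for Pam3Cys4 over unstimulated and shRNA over no shRNA; filled points passed the 5 CPM minimum, open points did not, and dotted lines mark 2-fold. Ppard is above the upper line in both Pam3Cys4 comparisons (2.66 with shRNA and 5.50 without), and Pparg is far above it in both shRNA comparisons (42.1 after Pam3Cys4 and 31.2 unstimulated).

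Per kilobase of exon, which allows genes to be set beside each other, the more abundant PPAR transcript differed with shRNA state. Pparg made up 57.4 and 83.1% of the summed Pparg and Ppard level per kb with shRNA (Pam3Cys4 and unstimulated), against 0.948 and 8.88% without. The sum itself was 10.8 and 10.3 CPM per kb with shRNA, against 15.5 and 3.07 without. After Pam3Cys4 with shRNA, Ppard had more counts than Pparg, 1902 against 1007. The order per kb in that library therefore rests on the GENCODE vM21 exon lengths, 7.51 kb for Ppard and 2.95 kb for Pparg. Among 49 nuclear receptors, Ppard without shRNA ranked 4 per kb after Pam3Cys4 and 13 unstimulated. Ppara, the receptor best known from liver, had at most 2 counts in a library.

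**Figure D3:**
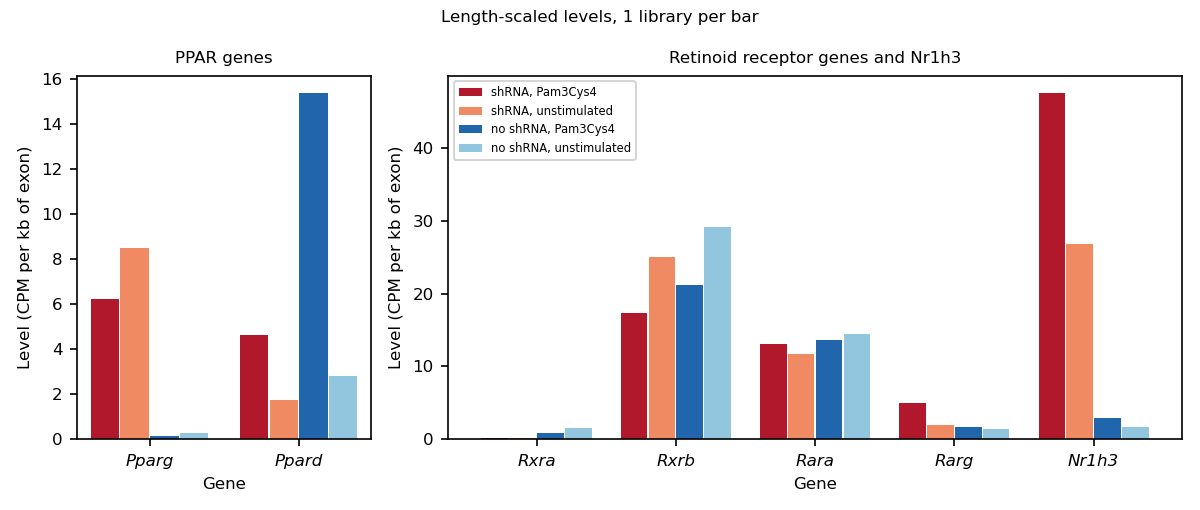
Level per kb of exon (CPM per kb, exon lengths from GENCODE vM21) of the PPAR genes on the left and of the retinoid receptors and Nr1h3 on the right, in the 4 libraries, those with shRNA first. Pparg exceeds Ppard with shRNA (6.21 against 4.61 CPM per kb after Pam3Cys4, 8.52 against 1.73 unstimulated), and Ppard exceeds Pparg without.

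Genes known as PPAR targets were examined as a list of 15, of which 13 were tested. With the shRNA 7 rose and 0 fell in the additive test (edgeR, adjusted p under 0.05), against 12.3 and 8.66% of all genes tested. Their median log2 effect over the 13 was 0.82 where that of all genes was 0.04. Fabp4, a fatty acid binding protein of fat cells and macrophages, had 7111 and 6321 counts with shRNA (Pam3Cys4 and unstimulated), against 967 and 206 without. Its shRNA ratio was 6.77 after Pam3Cys4 (6.33 to 7.25) and 24.0 unstimulated (20.9 to 27.7). The others that rose were Fabp5 (log2 effect 2.39), the fatty acid translocase Cd36 (2.19), the lipid droplet protein Plin2 (1.68), the mitochondrial carnitine palmitoyltransferase Cpt1a (1.45), the lipase inhibitor Angptl4 (1.28) and the thiolase Acaa2 (0.82). Acaa2 was named after its value was seen, because it completes the 7. These genes have other regulators too, and the list was drawn up with results of these data known.

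With Pam3Cys4, 0 of the 13 PPAR targets rose and 1 fell, Angptl4, by 1.68 on the log2 scale (SE 0.16, edgeR adjusted p = 0.00705). It had 398 counts after Pam3Cys4 and 1551 unstimulated with shRNA, and 151 and 500 in the same order without, so the ratio was 3.21-fold lower in both shRNA states. The list's median log2 effect of Pam3Cys4 was 0.06, beside 0.00 over all genes, of which 11.9% rose and 10.9% fell. The pair ratios differed by shRNA state: with shRNA 0 of 13 were called higher and 1 lower, and without shRNA 3 were higher and 2 lower. Shares of all genes called higher and lower were 6.3 and 3.53% with shRNA, and 7.07 and 6.51% without. The 3 higher targets were Fabp4, Plin2 and Cd36. Fabp4 had a Pam3Cys4 ratio of 1.37 with shRNA (1.32 to 1.41) and 4.84 without (4.16 to 5.66). Without shRNA the ratio was 2.39 for Plin2 and 2.29 for Cd36, while Cpt1a was 2.85-fold lower (2.64 to 3.08) and Angptl4 was the other lower gene. Ratios of ratios were computed over 9857 genes but are not given for these targets, and no replicate test of such a difference was possible.

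**Figure D4:**
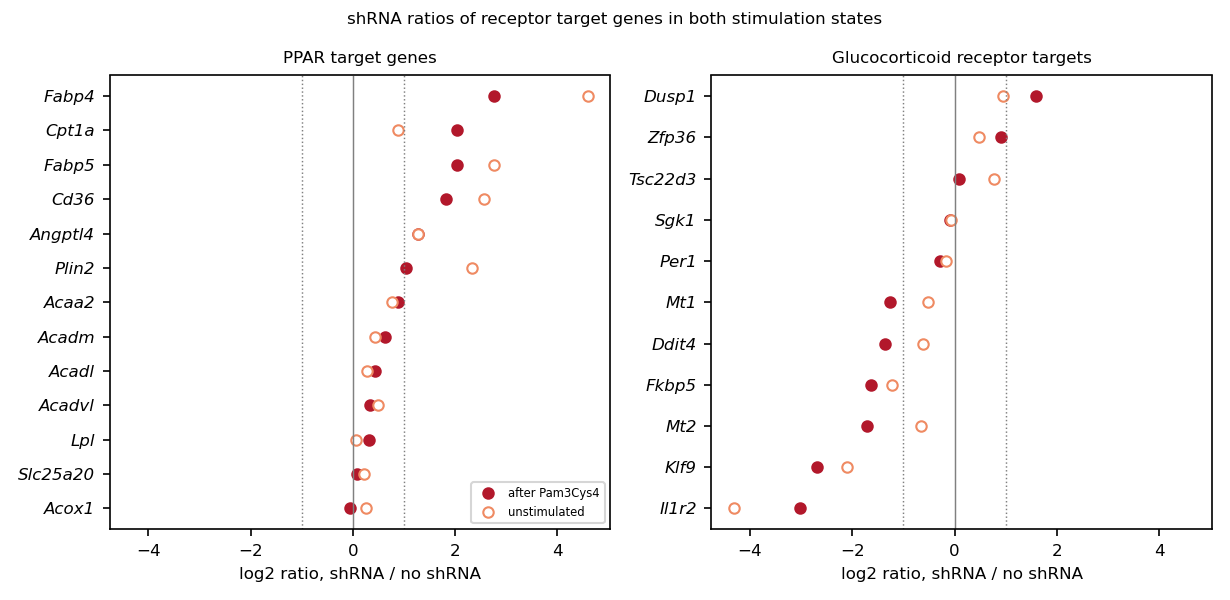
Ratio of shRNA over no shRNA on a log2 axis, after Pam3Cys4 and in unstimulated cells, for 13 PPAR target genes and 11 glucocorticoid receptor target genes that passed the 5 CPM minimum in both comparisons. Fabp4 is the highest of the PPAR targets in both (6.77 after Pam3Cys4 and 24.0 unstimulated), and Il1r2 and Klf9 are the lowest of the glucocorticoid receptor targets (8.11-fold and 6.44-fold lower after Pam3Cys4).

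Rxra, the heterodimer partner of PPARs and retinoic acid receptors, had 40 counts (0.729 CPM) after Pam3Cys4 and 54 (0.810 CPM) unstimulated with shRNA. Without shRNA it had 222 counts (4.39 CPM) after Pam3Cys4 and 451 (8.65 CPM) unstimulated. Both libraries with shRNA were lower than both without. In unstimulated cells Rxra was 10.7-fold lower with shRNA (8.04 to 14.4). After Pam3Cys4 it was 6.03-fold lower (4.29 to 8.67), but both libraries were under 5 CPM and no call was made there; a minimum of 1 CPM makes it one. For the same reason Rxra was outside the additive test, where a minimum of 1 CPM gives -3.02 on the log2 scale with the shRNA (edgeR adjusted p = 0.00278). Without shRNA the Pam3Cys4 library was 1.97-fold lower than the unstimulated one (1.67 to 2.32), just short of 2-fold.

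Rxrb, a related RXR gene, had 68.6 and 99.2 CPM with shRNA (Pam3Cys4 and unstimulated), against 84.3 and 116 CPM without. Per kb of exon its level lay between 17.3 and 29.1 CPM over the 4 libraries. That of Rxra was 0.133 and 0.148 CPM per kb with shRNA, against 0.805 and 1.58 without, so Rxrb was the more abundant of the pair in each library. It fell with Pam3Cys4 in the additive test, and Rxrg, the other RXR gene, had at most 1 count in a library. Nr1h3, which encodes the liver X receptor alpha, a sensor of oxidised cholesterol that pairs with RXR, had 120 and 67.4 CPM with shRNA, against 7.38 and 4.30 CPM without. Nr1h3 rose with the shRNA by 3.99 on the log2 scale (edgeR adjusted p = 0.000458), with ratios of 16.2 after Pam3Cys4 and 15.7 unstimulated.

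Rara, which encodes the retinoic acid receptor alpha, had 3133 and 3398 counts with shRNA (Pam3Cys4 and unstimulated), against 3005 and 3286 without. At 57.1 and 51.0 CPM with shRNA, against 59.5 and 63.0 CPM without, it varied least of the 10 as a fold, 1.24-fold from the lowest library to the highest. The additive effects on Rara were 0.04 for Pam3Cys4 (edgeR adjusted p = 0.844) and -0.18 for the shRNA (adjusted p = 0.372) on the log2 scale. Per kb it was the most abundant of the 10 in 3 libraries and the second, after Ppard, in the Pam3Cys4 library without shRNA.

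Rarg, the gamma form, had 1150 counts (20.9 CPM) after Pam3Cys4 and 532 (7.98 CPM) unstimulated with shRNA, and 358 (7.09 CPM) and 313 (6.00 CPM) in the same order without. The Pam3Cys4 library with shRNA stood above the other 3, which lay between 6.00 and 7.98 CPM. The Pam3Cys4 ratio was 2.62 with shRNA (2.37 to 2.91) and 1.18 without (1.01 to 1.38). The first was 2.22-fold larger than the second, a log2 ratio of ratios of 1.15 (0.89 to 1.42). After Pam3Cys4, Rarg was 2.96-fold higher with shRNA (2.62 to 3.34), and the ratio in unstimulated cells was 1.33 (1.15 to 1.53). Neither additive effect passed, 0.83 for Pam3Cys4 (edgeR adjusted p = 0.115) and 1.00 for the shRNA (adjusted p = 0.0885), in a model that has no term for a response in 1 library alone. The shRNA effect on Rarg passed with DESeq2 (0.95, adjusted p = 0.032), and without a filter on level both effects passed (edgeR adjusted p = 0.0202 for Pam3Cys4 and 0.00591 for the shRNA).

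The members Rxra, Rara and Rarg were summed per kb, without Rxrb. Rara was 72.1 and 85.2% of that sum with shRNA (Pam3Cys4 and unstimulated), against 84.7 and 82.8% without. Rarg was 27.1 and 13.7% with shRNA, against 10.3 and 8.08% without. Rxra was 0.736 and 1.08% with shRNA, against 5.00 and 9.09% without. Of 15 genes of retinoid metabolism and known retinoic acid targets, 5 were tested. With Pam3Cys4 1 rose, Dhrs3, a retinaldehyde reductase, and 0 fell. Dhrs3 was under 2-fold in both shRNA states, with ratios of 1.34 with shRNA and 1.54 without. No gene of the list was called in the Pam3Cys4 pair with shRNA, whereas without shRNA Tgm2 was 3.63-fold higher and Rdh10, a retinol dehydrogenase, was 2.62-fold lower (2.31 to 2.98). With the shRNA 1 rose and 0 fell in the additive test: Tgm2, transglutaminase 2, at 2559 and 2007 CPM with shRNA, against 159 and 44.0 CPM without. The shRNA pairs each called Tgm2 higher and 1 gene lower. That gene was Dhrs9 after Pam3Cys4, 2.02-fold lower (1.93 to 2.11), and Rdh10 in unstimulated cells, 2.51-fold lower (2.24 to 2.81). The list's median log2 effects were 0.30 and 0.10 for Pam3Cys4 and the shRNA, where all genes had 0.00 and 0.04. Of all genes tested, 11.9% rose and 10.9% fell with Pam3Cys4, and 12.3% rose and 8.66% fell with the shRNA. The retinoic acid synthesising enzymes Aldh1a1 and Aldh1a2 had 0 counts in each library, and Aldh1a3 had at most 2, as single genes looked up after the counts were seen.

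Of the NR4A genes, Nr4a1 alone was abundant enough for the additive test, and it did not pass with Pam3Cys4 at 5 h. Nr4a1, also called Nur77, had 954 and 1064 counts with shRNA (Pam3Cys4 and unstimulated), against 485 and 566 without. These are 17.4 and 16.0 CPM with shRNA, against 9.60 and 10.9 CPM without, so both libraries with shRNA were above both without. The Pam3Cys4 ratio was 1.09 with shRNA (0.996 to 1.19) and 0.884 without (0.782 to 1.00), with an additive log2 effect of -0.02 (edgeR adjusted p = 0.924). The shRNA ratio was 1.81 after Pam3Cys4 (1.62 to 2.02) and 1.47 unstimulated (1.33 to 1.63), under 2-fold in both. Nr4a1 rose with the shRNA by 0.71 on the log2 scale in the additive test (SE 0.16, edgeR adjusted p = 0.0435), and this call was lost with DESeq2 (0.67, adjusted p = 0.0533) and with library totals in place of TMM (0.61, edgeR adjusted p = 0.0552).

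Nr4a2, or Nurr1, had 202 and 174 counts with shRNA (Pam3Cys4 and unstimulated), against 89 and 99 without. At 3.68 and 2.61 CPM with shRNA, against 1.76 and 1.90 CPM without, it was under the 5 CPM minimum throughout. Both libraries with shRNA were again the higher ones. The shRNA ratio was 2.09 after Pam3Cys4 (1.62 to 2.71) and 1.38 unstimulated (1.07 to 1.78), and the Pam3Cys4 ratio was 1.41 with shRNA (1.14 to 1.74) and 0.928 without (0.689 to 1.25). With a minimum of 1 CPM its additive shRNA effect was 0.76 on the log2 scale (edgeR adjusted p = 0.1).

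Nr4a3, or Nor1, had 13 counts after Pam3Cys4 and 1 unstimulated with shRNA, and 11 and 5 in the same order without. Both Pam3Cys4 libraries had more counts than both unstimulated ones, at 0.237 CPM or less. The Pam3Cys4 ratio was 15.8 with shRNA, with a counting interval from 2.37 to 671, and 2.27 without (0.727 to 8.33). At this depth the size of that difference was not determined. Nr4a1 made up 84.0 and 87.6% of the summed NR4A level per kb with shRNA, against 85.3 and 86.5% without.

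Of 10 transcription factors and coactivators known to act on NR4A promoters, all 10 were tested, and 0 rose and 2 fell with Pam3Cys4. These were Mef2c, a MADS box factor, and Creb1, the CREB gene. With the shRNA 0 rose and 1, Mef2c, fell. Mef2c had 68.7 and 106 CPM with shRNA (Pam3Cys4 and unstimulated), against 121 and 277 CPM without. The list's median log2 effects were 0.15 for Pam3Cys4 and -0.15 for the shRNA, beside 0.00 and 0.04 over all genes. Shares of all genes tested were 11.9% that rose and 10.9% that fell with Pam3Cys4. With the shRNA these shares were 12.3 and 8.66%.

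Vdr, the vitamin D receptor, had 5 and 13 counts with shRNA (Pam3Cys4 and unstimulated), against 21 and 25 without. It was at or under 0.480 CPM in each library, the lowest with Nr4a3 per kb, and the libraries with shRNA had fewer counts than those without. The shRNA ratio was 4.56-fold lower after Pam3Cys4 (1.67 to 15.5) and 2.46-fold lower unstimulated (1.21 to 5.23), below the level at which calls were made. The Pam3Cys4 ratio was 0.467 with shRNA (0.130 to 1.40) and 0.867 without (0.461 to 1.61), both intervals including 1. Of 10 genes of vitamin D metabolism and known vitamin D targets, 2 were tested, and both fell with the shRNA: the secreted phosphoprotein Spp1 (log2 effect -1.65), which many other signals control, and the sterol hydroxylase Cyp27a1 (-1.32). The median of these 2 was -1.48 where all genes had 0.04, and 0 of 2 passed with Pam3Cys4 in the additive test (median 0.08, beside 0.00). Of all genes tested, 8.66% fell with the shRNA. In the Pam3Cys4 pairs Spp1 was called higher without shRNA, at 2.11 (2.11 to 2.12), and its ratio with shRNA was 1.27 (1.26 to 1.28). Cyp27a1 was called in neither pair. Cyp24a1, the enzyme that breaks down active vitamin D and a standard readout of its receptor, had 0 counts in each library. Cyp27b1, which makes active vitamin D, had 1 and 11 counts with shRNA, against 10 and 9 without. Both were looked up after the counts were seen.

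Nr3c1, the glucocorticoid receptor, had 3447 and 2683 counts with shRNA (Pam3Cys4 and unstimulated), against 3215 and 2582 without. At 62.8 and 40.3 CPM with shRNA, against 63.6 and 49.5 CPM without, both Pam3Cys4 libraries were above both unstimulated ones. The Pam3Cys4 ratio was 1.56 with shRNA (1.48 to 1.64) and 1.28 without (1.22 to 1.35), and the additive log2 effect of 0.50 did not pass (edgeR adjusted p = 0.0605), though it did with DESeq2 (adjusted p = 0.0497). The shRNA ratio was 0.987 after Pam3Cys4 (0.940 to 1.04) and 0.813 unstimulated (0.770 to 0.858), with an additive log2 effect of -0.16 (edgeR adjusted p = 0.449).

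Of 14 known glucocorticoid receptor targets, 12 were tested. With the shRNA 2 rose and 7 fell in the additive test, against 12.3 and 8.66% of all genes tested. The median log2 effect of the 12 was -0.88, where all genes had 0.04. Klf9, a zinc finger factor induced by glucocorticoids in many tissues, had 7.21 and 14.7 CPM with shRNA (Pam3Cys4 and unstimulated), against 46.5 and 62.7 CPM without. Fkbp5, the immunophilin that feeds back on the receptor, had 48.7 and 70.7 CPM with shRNA, against 151 and 165 CPM without. Il1r2, the decoy receptor for interleukin 1, had 0.747 and 0.420 CPM with shRNA, against 6.06 and 8.33 CPM without. All 3 were lower in both libraries with shRNA. In unstimulated cells these 3 of 11 were called lower and 0 higher (median log2 ratio -0.52, beside 0.02), against 4.82 and 7% of all genes. After Pam3Cys4 7 of 12 were called lower and 1 higher (median -1.15, beside 0.05), against 5.58 and 9%. The others that fell in the additive test were the metallothioneins Mt2 (-1.19) and Mt1 (-0.89), which metals also induce. The mTOR inhibitor Ddit4 (-0.99) and the EGFR inhibitor Errfi1 (-0.87) fell too. The 2 that rose were Dusp1, a MAP kinase phosphatase (1.28), and Zfp36, which destabilises cytokine mRNA (0.70). TLR signals are known to induce both. With Pam3Cys4 both rose, as did Errfi1 among the 7 that fell with the shRNA. The part of such signals in the shRNA values was not tested. Mt1 and Ddit4 were named after their values were seen, to complete the 7. Tsc22d3, which encodes the glucocorticoid-induced leucine zipper, had shRNA ratios of 1.07 after Pam3Cys4 (0.910 to 1.25) and 1.71 unstimulated (1.52 to 1.93). The glucocorticoid content of the culture serum is not given.

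With Pam3Cys4 4 of the 12 targets rose (Zfp36, Errfi1, Dusp1 and Per1) and 0 fell, against 11.9 and 10.9% of all genes tested. Their median log2 effect over the 12 was 0.13, beside 0.00 over all genes. The pair ratios split by shRNA state. With shRNA 3 of 11 were called higher and 2 lower (median log2 ratio -0.22, beside 0.02), against 6.3 and 3.53% of all genes. Without shRNA 4 of 12 were higher and 0 lower (median 0.41, beside -0.00), against 7.07 and 6.51%. The 2 lower with shRNA were Tsc22d3, at a Pam3Cys4 ratio of 0.486 (0.427 to 0.551), and Klf9, at 0.491 (0.436 to 0.553). Of 7 receptor chaperones and corticosteroid enzymes, 5 were tested. Hsp90aa1, an HSP90 gene, rose with Pam3Cys4, 0 fell, and 0 changed in either direction with the shRNA. The median log2 effects were 0.36 and 0.16, beside 0.00 and 0.04. Hsd11b1, which regenerates active glucocorticoid inside cells, had 6 and 4 counts with shRNA, against 7 and 3 without. Hsd11b2, the other corticosteroid enzyme listed, had 15 and 35 counts with shRNA, against 1 and 3 without. Both were under the 5 CPM minimum in each library and are exceptions to the rule for naming genes.

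Among 39 other nuclear receptors, 12 were tested. With Pam3Cys4 1 rose (Nr1h3) and 3 fell (Rxrb, Nr2f6 and the clock receptor Nr1d2), and with the shRNA 2 rose (Nr1h3 and the estrogen receptor Esr1) and 0 fell. Nr1d2 was 2.92-fold lower after Pam3Cys4 with shRNA (4.12 against 12.0 CPM) and 2.99-fold lower without (5.54 against 16.6 CPM). Esr1 had 7.98 and 7.14 CPM with shRNA (Pam3Cys4 and unstimulated), against 1.84 and 2.30 CPM without. The medians were -0.04 for Pam3Cys4 and -0.09 for the shRNA on the log2 scale, where all genes had 0.00 and 0.04. Of all genes tested, 11.9% rose and 10.9% fell with Pam3Cys4, and 12.3% rose and 8.66% fell with the shRNA.

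The genes whose profile over the 4 libraries was nearest to a receptor were sought for the 3 members with the widest range, by Euclidean distance between centred log2(CPM + 1) values over 9908 genes. Nearest to Pparg, with a range of 4.19 on that scale, were Cgnl1 (distance 0.10), Rasd2 (0.13) and the heparanase gene Hpse (0.14). Rasd2 had 17.9 and 23.8 CPM with shRNA (Pam3Cys4 and unstimulated), against 0.416 and 0.940 CPM without. Nearest to Ppard, with a range of 3.06, were Galnt3 (0.33), Dgkh (0.35) and the small MAF factor gene Maff (0.41). Maff had 12.3 and 4.28 CPM with shRNA, against 40.8 and 10.3 CPM without. Nearest to Rxra, with a range of 2.48, were Nxn (0.17), the ETS factor gene Etv4 (0.21) and Slc4a8 (0.24). With 4 libraries such likeness is shared by many genes that follow the same libraries.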

How the data were processed

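An Illumina mRNA kit gave libraries of 50 bp reads, per the labels' protocols. CASAVA 1.8, TopHat, HTSeq and the build NCBIM37 are named in the submitters' processing notes (strand setting, annotation release and other versions: not given in the sources used here). Raw whole numbers, the authors' HTSeq read counts per gene, were deposited. Totals that name no gene were 32.5 to 34.4% of each table and were left out of library sizes. Of 37681 IDs, 32642 were matched to a symbol in GENCODE vM21, which also gave exon lengths; no exon of the 10 receptors overlaps another gene's exon there. TMM factors of 0.924 to 1.1, from edgeR 4.0.16 in R 4.3.3, scaled the counts, and CPM are on that scale. Pair ratios have exact 95% conditional binomial intervals and need at least 5 CPM in the higher library; a count of 0 would take a floor of 3 counts. Ratios of ratios need at least 10 counts in each library and have delta-method intervals. The additive edgeR quasi-likelihood test, for genes that reached 5 CPM in 2 or more libraries, had 1 residual and 3.76 prior degrees of freedom and a biological coefficient of variation of 0.137; Benjamini-Hochberg adjustment ran over all genes tested, with a threshold of 0.05. The SE given with an additive effect was worked back from that test, as the absolute log2 effect divided by the square root of its F statistic. The scripts were tested on simulated data. Alternatives were DESeq2 1.42.0, other scalings, filters and fold thresholds.

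All 10 members are named. From each list at most 4 genes per comparison were named, those with the largest absolute ratio past the filter. Ppara, Rxrg, Eif2s3y and Xist, all below the filter, are exceptions, and the other exceptions are marked in the text. Members and lists were chosen with earlier results of these data known. Promoter windows are from RefSeq (GRCm38.p6), searched on both strands also for NF-kB and CArG consensus letters. The targeted lncRNA is not reported here.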

Additional observations from a re-analysis of the deposited data

Results flagged for a closer look

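Some receptors had a Pam3Cys4 or shRNA ratio that differed with the state of the other factor. With 1 library per group these differences were not tested against replicates. Ppard had a smaller Pam3Cys4 fold with shRNA than without (log2 ratio of ratios -1.05), and Rarg had a larger one (1.15), both past 2-fold with counting intervals that exclude 0.

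Other receptors had ratios on opposite sides of 1, each under 2-fold in both states except for Nr4a3. None was set against replicates. The log2 Pam3Cys4 ratio of Nr4a1 was 0.12 with shRNA and -0.18 without, that of Nr4a2 was 0.49 with shRNA and -0.11 without, and that of Rara was 0.16 with shRNA and -0.08 without. The log2 ratio of ratios was 0.30 for Nr4a1 (0.08 to 0.52) and 0.25 for Rara (0.15 to 0.35), counting intervals that exclude 0 at a size under 2-fold, and Nr4a2 was too low to be tested. Scaled by library totals, the value of Nr4a1 with shRNA was -0.01. The log2 shRNA ratio of Nr4a3 was 0.12 after Pam3Cys4 and -2.68 in unstimulated cells, the second on 1 count with shRNA against 5 without, and that difference was not tested.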

How the results depend on the processing

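No called receptor value changed sign among 335 alternative values: 309 kept their side of the threshold, 19 gained a call and 7 lost one. Filters and fold thresholds leave a pair ratio or a ratio of ratios itself unchanged. For these, only another scaling could change the sign, so most of their unchanged signs were fixed in advance. Uncalled values changed sign in 2 cases, both with library totals: the Pam3Cys4 ratio of Nr4a1 with shRNA (log2 -0.01, where TMM gave 0.12) and the additive Pam3Cys4 effect on Rara (-0.12, where TMM gave 0.04). The 7 were Nr4a1 with the shRNA in the additive test under DESeq2 and library totals, and Ppard and Rarg under a 3-fold threshold. No paired analysis was possible because each group had 1 library and the labels give no shared replicate numbers. Leaving out a library was not run, since the additive fit would have no residual degrees of freedom.

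Counts of members and genes moved as follows. Pam3Cys4 with shRNA: members higher 2, or 0 at 3-fold; genes apart 944, or 2181 with no filter, 2354 at 1.5-fold and 366 at 3-fold. Without shRNA: members lower 0, or 1 with library totals or at 1.5-fold (Rxra); genes 1298, or 2574, 2948 and 498 in the same order. shRNA after Pam3Cys4: members higher 2, or 1 at 3-fold; members lower 1, or 2 with a 1 CPM minimum and 3 with no filter; genes 1414, or 3059 with no filter, 2821 at 1.5-fold and 776 at 3-fold. shRNA unstimulated: members lower 1, or 2 with no filter or at 1.5-fold; genes 1141, or 1725 at 1 CPM, 2800 with no filter, 2262 at 1.5-fold and 653 at 3-fold. Ratio of ratios: members larger 1, or 2 at 1.5-fold and 0 at 3-fold; smaller 1, or 0 at 3-fold; genes 353, or 660 with no CPM minimum, 1274 at 1.5-fold and 97 at 3-fold. Additive Pam3Cys4: members that rose 1, or 2 with DESeq2 (Nr3c1 added) and 3 with no filter (Rarg and Nr3c1 added); fell 0, or 1 with library totals (Pparg, -0.73); genes 2183, or 3870 with no filter. Additive shRNA: members that rose 2, or 1 with library totals and 3 with no filter (Rarg added), while DESeq2 also gave 2 but lost Nr4a1 (adjusted p = 0.0533) and gained Rarg (adjusted p = 0.032); fell 1, or 2 with a 1 CPM minimum or no filter (Rxra added); genes 1999, or 4044 with no filter. A lower minimum or fold admits more genes by construction; other causes were not tested.

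Library totals moved the median log2 ratio of all genes to -0.118 and -0.185 for Pam3Cys4 (with and without shRNA) and to -0.025 and -0.098 for the shRNA (Pam3Cys4 and unstimulated). They moved the split of genes higher and lower with Pam3Cys4 to 494 and 466 with shRNA, where TMM gave 605 and 339, and to 541 and 898 without, where TMM gave 676 and 622. In the additive test the split became 957 and 2023 for Pam3Cys4, against 1138 and 1045, and 1035 and 1260 for the shRNA, against 1171 and 828. Depth limits Nr4a3 and Vdr, at most 25 counts in a library, and Pparg without shRNA.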

Other observations

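Nuclear receptor coregulators, the proteins that receptors recruit to activate or silence genes, were a list of 20, of which 19 were tested. With Pam3Cys4 0 rose and 4 fell in edgeR's additive test: the p160 coactivators Ncoa2 and Ncoa3, the corepressor Nrip1, and Ppargc1b, a coactivator of mitochondrial genes. Ppargc1b had 10.7 CPM after Pam3Cys4 and 22.0 CPM unstimulated with shRNA, and 8.95 and 17.8 CPM in the same order without. Ncoa2 had 61.4 CPM after Pam3Cys4 and 104 CPM unstimulated with shRNA, and 54.1 and 115 CPM without. With the shRNA 3 rose and 0 fell: Tbl1xr1 and Gps2, subunits of the NCoR corepressor complex, and the coactivator Ncoa6. Tbl1xr1 had 58.4 and 75.9 CPM with shRNA (Pam3Cys4 and unstimulated), against 20.9 and 26.6 CPM without, a ratio of 2.80 after Pam3Cys4 and 2.85 unstimulated. The list's median log2 effects were -0.20 and 0.18 for Pam3Cys4 and the shRNA, where all genes had 0.00 and 0.04. Of all genes tested, 11.9% rose and 10.9% fell with Pam3Cys4, and 12.3% rose and 8.66% fell with the shRNA.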
